A study of Mus musculus with 11 samples.

Results

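The guanylate-binding proteins (GBPs) examined here were the mouse genes Gbp2 to Gbp9, each represented by its brightest probe set carrying exactly 1 gene symbol. Of the 8 genes listed, 7 had such a probe set (Gbp3, Gbp4, Gbp5, Gbp6, Gbp7, Gbp8 and Gbp9), out of 22180 genes measured this way on the arrays. Gbp2 had no probe set to itself, because its only one also carries the symbol Gbp2b, and it was not analysed here. GBPs are large GTPases of the dynamin superfamily that cells make in quantity when interferon-gamma, and to a lesser extent type I interferon, reaches them. They assemble on the membranes of vacuoles that hold bacteria or parasites, break those membranes open and help to start inflammasome signalling. In the mouse the family lies in 1 cluster on chromosome 3 and 1 on chromosome 5.

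The genes were measured in sorted common lymphoid progenitors (CLPs) of C57BL/6 mice, bone marrow cells from which B cells and other lymphocytes arise. The mice were given 50 µg of CpG1826, a synthetic DNA ligand of Toll-like receptor 9, or PBS, and bone marrow was taken on day 10. The sort separated CLPs with and without the surface protein Ly-6D, which appears as they commit to making B cells. For Ly-6D+ CLPs 3 arrays came from mice given CpG and 2 from mice given PBS, and for Ly-6D- CLPs each treatment had 3 arrays. All levels below are log2 values after robust multi-array averaging (RMA), so a step of 1 is a doubling. Levels of different genes are compared only as percentiles of mean level, which are rough because each gene has its own probes. All adjusted p values are from limma, over all 22180 genes, with a gene called when its adjusted p was below 0.05, and SE stands for the standard error of each log2 change. Nothing in the labels says that replicates came from separate or from pooled animals, so each p value covers only the spread among these samples, which may be technical.

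The array medians lay between 3.85 and 3.96, and the small number of arrays limits the precision. No detection values entered the comparisons. Ly6d, the gene of the sorted protein, was 4.85 higher in Ly-6D+ than in Ly-6D- CLPs after CpG (adjusted p = 3.46e-07) and 4.35 higher after PBS (adjusted p = 1.68e-06), as the sort labels say. The CLP genes Il7r, Flt3, Kit, Cd93, Dntt and Rag2 all lay at the 91.6th percentile of genes by mean level or higher. Some marker genes of other cell types lay as high, such as S100a8 (99.9th), Ly6c2 (98.9th) and Siglech (94.9th). Others lay low, such as Cd14 (37.6th). These percentiles therefore do not show how pure the sorted cells were. It is also not stated whether the Ly-6D+ and Ly-6D- samples share animals. In bulk samples, fewer cells expressing a gene cannot be told apart from less RNA per cell.

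The 3 measured members on chromosome 3 lie side by side there, in the order Gbp5, Gbp7 and Gbp3, and the RefSeq promoter table for GRCm38.p6 held windows for all of them. Each window covers 250 bases before to 50 bases after an annotated start. The windows are shown because interferon acts on this family through the interferon-stimulated response element (ISRE), bound by IRF and STAT complexes, and the gamma-activated site (GAS). Capitals mark matches to GAAANNGAAA or its reverse TTTCNNTTTC (ISRE) and to TTCNNNGAA (GAS, which reads the same on both strands). The Gbp5 window is chr3:142496684-142496983, the Gbp7 window chr3:142530086-142530385 and the first Gbp3 window chr3:142559794-142560093, all on the + strand.
Gbp5: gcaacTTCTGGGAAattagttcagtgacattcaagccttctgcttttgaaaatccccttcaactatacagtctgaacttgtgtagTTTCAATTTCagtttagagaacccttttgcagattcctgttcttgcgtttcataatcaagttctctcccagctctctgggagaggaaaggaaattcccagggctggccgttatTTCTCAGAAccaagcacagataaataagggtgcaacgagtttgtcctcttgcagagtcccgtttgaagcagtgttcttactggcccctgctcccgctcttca
Gbp7: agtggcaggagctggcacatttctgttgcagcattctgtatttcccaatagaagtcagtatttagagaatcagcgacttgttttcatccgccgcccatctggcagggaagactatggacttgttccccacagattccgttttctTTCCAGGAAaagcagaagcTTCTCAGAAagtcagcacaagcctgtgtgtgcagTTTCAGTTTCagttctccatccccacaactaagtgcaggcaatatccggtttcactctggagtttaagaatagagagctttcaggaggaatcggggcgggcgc
Gbp3: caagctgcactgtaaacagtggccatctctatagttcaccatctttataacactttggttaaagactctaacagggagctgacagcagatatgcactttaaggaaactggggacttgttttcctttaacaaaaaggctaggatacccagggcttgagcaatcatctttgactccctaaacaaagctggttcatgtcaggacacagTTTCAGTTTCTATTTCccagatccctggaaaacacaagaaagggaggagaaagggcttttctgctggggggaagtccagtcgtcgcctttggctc

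Gbp5 held 1 ISRE match at -165 to -156 from the start, with GAS matches at -245 to -237 and at -52 to -44. Gbp7 held 1 ISRE match at -53 to -44 and GAS matches at -106 to -98 and at -87 to -79. Gbp3 held 2 ISRE matches that overlap each other, at -45 to -36 and at -39 to -30, and no GAS match. A second RefSeq window of Gbp3 held neither set of letters. Of all 32851 windows in the table, 3.44% held the ISRE letters, 8.3% the GAS letters and 0.454% both. A match of letters is a description and not evidence that a factor binds there. Gbp4, Gbp6, Gbp8 and Gbp9 are on chromosome 5, where Gbp8, Gbp9 and Gbp4 are neighbours and Gbp6 lies further along, beyond Gbp10. The promoter table held no window for these chromosome 5 members, so they were not searched for the ISRE or GAS letters.

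**Figure D1:**
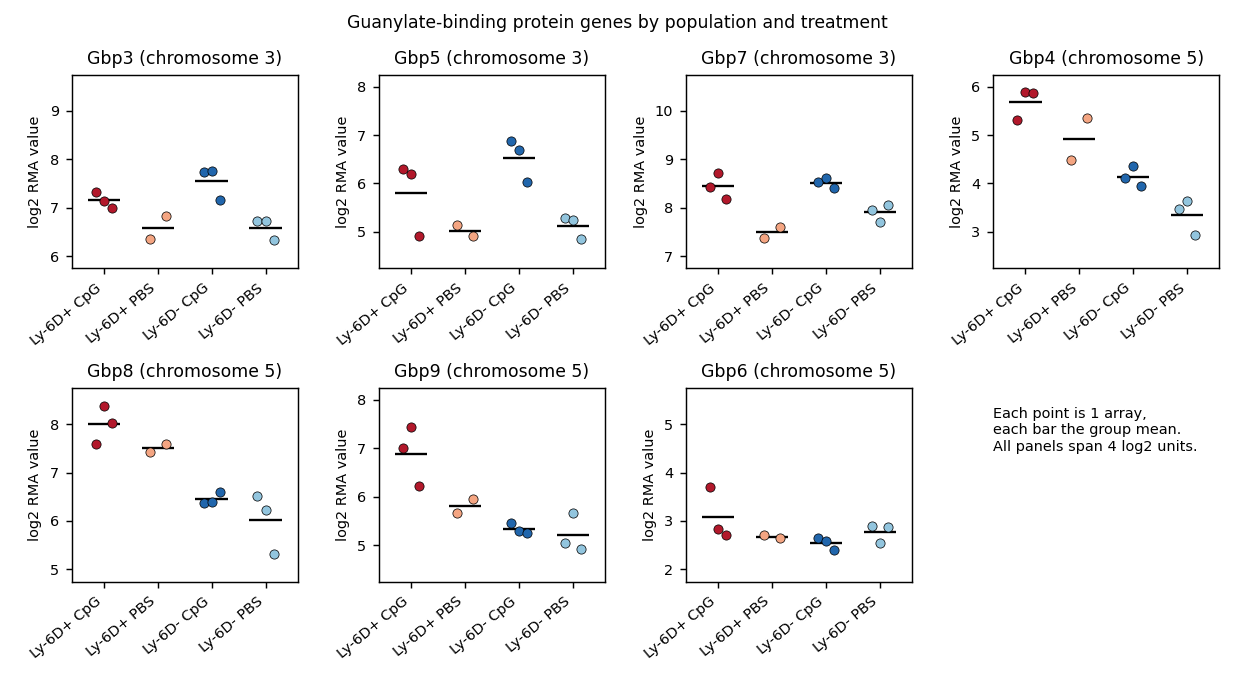
Level of each measured GBP gene (vertical axis, log2 RMA) in every array, by population and treatment (horizontal axis); each point is 1 array and each bar a group mean. Gbp3 and Gbp7 sit higher after CpG in both populations, as does Gbp5 except in 1 Ly-6D+ array at 4.91, and Gbp4 and Gbp8 sit higher in all Ly-6D+ arrays.

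The first question was what CpG did to the family in the CLP populations. Averaged over both populations, Gbp7 rose 1.72-fold after CpG, and all 7 measured members had a log2 change above 0, with a median of 0.76, where 50.5% of all genes were above 0. Gbp7 was the only member called in this comparison, 1 of 7, where 0.482% of all genes were called and 0.28% were called higher. The other members did not pass, although 6 of 7 had an unadjusted p below 0.05 upward, against 5.8% of all genes. The chromosome 3 members Gbp5, Gbp7 and Gbp3 had averaged log2 changes of 1.09, 0.78 and 0.76, and the chromosome 5 members Gbp4, Gbp9, Gbp8 and Gbp6 had 0.78, 0.61, 0.47 and 0.09. Grouping by chromosome was chosen after the values were seen.

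Gbp7, which in mouse macrophages promotes assembly of the oxidase that makes superoxide, had the smallest adjusted p of the 7 members in the averaged CpG comparison. Its level was 8.42, 8.73 and 8.19 in Ly-6D+ CLPs after CpG, against 7.38 and 7.59 after PBS. In Ly-6D- CLPs it was 8.52, 8.62 and 8.41 after CpG, against 7.95, 7.71 and 8.06 after PBS. Every CpG array was above every PBS array of either population, which was also so for Gbp3. The log2 change was 0.96 in Ly-6D+ CLPs (SE 0.16, adjusted p = 0.120) and 0.61 in Ly-6D- CLPs (SE 0.15, adjusted p = 0.110), neither of which passed, and 0.78 averaged over both (SE 0.11, adjusted p = 0.0184), which did. That call was lost when 1 of 6 arrays was left out: replicate 1 of Ly-6D+ CpG (adjusted p = 0.0618), replicates 1 (0.102) and 2 (0.0721) of Ly-6D+ PBS, replicates 1 (0.0572) and 2 (0.0606) of Ly-6D- CpG, and replicate 1 of Ly-6D- PBS (0.0513). It was also lost when every probe set was tested by itself (adjusted p = 0.0559). The change itself stayed between 0.71 and 0.85 whichever array was left out.

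Gbp5, which in mouse macrophages promotes NLRP3 inflammasome assembly, had the highest averaged change of the 7, 2.13-fold. Its level was 6.29, 6.20 and 4.91 in Ly-6D+ CLPs after CpG, against 5.13 and 4.91 after PBS. The Ly-6D- CLPs had 6.88, 6.69 and 6.04 after CpG, against 5.29, 5.24 and 4.85 after PBS. The groups did not overlap in Ly-6D- CLPs, whereas in Ly-6D+ CLPs CpG replicate 3 lay at the level of the PBS arrays and the other CpG arrays lay well above them. On the log2 scale the change was 0.78 in Ly-6D+ CLPs (SE 0.38, adjusted p = 0.800), 1.41 in Ly-6D- CLPs (SE 0.34, adjusted p = 0.112) and 1.09 averaged (SE 0.25, adjusted p = 0.113), and none passed. Without Ly-6D+ CpG replicate 3 the change in Ly-6D+ CLPs was 1.22 (adjusted p = 0.207), the change in Ly-6D- CLPs passed (1.41, adjusted p = 0.0381) and so did the average (1.32, adjusted p = 0.0146).

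Gbp3, whose loss together with its chromosome 3 neighbours makes mice susceptible to Toxoplasma, was 7.33, 7.14 and 6.99 in Ly-6D+ CLPs after CpG, against 6.35 and 6.83 after PBS. In Ly-6D- CLPs its level was 7.74, 7.75 and 7.15 after CpG, against 6.72, 6.72 and 6.32 after PBS. The CpG arrays were above the PBS arrays in both populations, with the narrower gap in Ly-6D+ CLPs. The log2 change was 0.56 in Ly-6D+ CLPs (SE 0.22, adjusted p = 0.690), 0.96 in Ly-6D- CLPs (SE 0.19, adjusted p = 0.0609) and 0.76 averaged (SE 0.15, adjusted p = 0.0614), and none passed. Without Ly-6D- CpG replicate 3, the lowest CpG array of that population, the Ly-6D- change was 1.16 (adjusted p = 0.0177) and the average 0.86 (adjusted p = 0.0170).

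The chromosome 5 members moved less evenly with CpG. Gbp9, which is recruited to Toxoplasma vacuoles in mouse cells, was 7.01, 7.44 and 6.23 in Ly-6D+ CLPs after CpG, against 5.66 and 5.95 after PBS. Levels in Ly-6D- CLPs were 5.46, 5.30 and 5.26 after CpG, against 5.04, 5.66 and 4.93 after PBS. The groups were apart in Ly-6D+ CLPs and overlapped in Ly-6D- CLPs. The log2 change was 1.09 in Ly-6D+ CLPs (SE 0.31, adjusted p = 0.484) and 0.13 in Ly-6D- CLPs (SE 0.28, adjusted p = 0.911). The difference between these changes was 0.96 (SE 0.42, 95% interval 0.03 to 1.88, unadjusted p = 0.0442 from limma), with an adjusted p of 0.783, so the data do not show that the population altered the response of Gbp9.

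Gbp4 was 5.31, 5.89 and 5.87 in Ly-6D+ CLPs after CpG, against 4.48 and 5.36 after PBS. In Ly-6D- CLPs it was 4.11, 4.37 and 3.94 after CpG, against 3.47, 3.64 and 2.93 after PBS. The treatments overlapped in Ly-6D+ CLPs, through PBS replicate 2, and did not in Ly-6D- CLPs. The log2 change was nearly equal in both, 0.77 in Ly-6D+ CLPs (SE 0.29, adjusted p = 0.668) and 0.79 in Ly-6D- CLPs (SE 0.26, adjusted p = 0.236), and did not pass averaged (0.78, adjusted p = 0.135).

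Gbp8 was 7.60, 8.38 and 8.03 in Ly-6D+ CLPs after CpG, against 7.42 and 7.59 after PBS. The Ly-6D- CLPs had 6.37, 6.39 and 6.61 after CpG, against 6.52, 6.22 and 5.31 after PBS. The lowest Ly-6D+ CpG array was only just above the higher PBS array, and the Ly-6D- groups overlapped. Its log2 changes were 0.50 in Ly-6D+ CLPs (adjusted p = 0.874), 0.44 in Ly-6D- CLPs (adjusted p = 0.605) and 0.47 averaged (adjusted p = 0.437).

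Gbp6, implicated in mouse macrophages in defence against intracellular bacteria, was dim, at the 22.4th percentile of genes by mean level, while the other members lay between the 51.6th and the 87.1st. Its level was 3.71, 2.84 and 2.70 in Ly-6D+ CLPs after CpG, against 2.70 and 2.65 after PBS. Levels in Ly-6D- CLPs were 2.65, 2.59 and 2.41 after CpG, against 2.90, 2.55 and 2.88 after PBS. Only Ly-6D+ CpG replicate 1 stood above the rest. The log2 change was 0.40 in Ly-6D+ CLPs (adjusted p = 0.872; 0.09 without that array), -0.22 in Ly-6D- CLPs (adjusted p = 0.772) and 0.09 averaged (adjusted p = 0.889).

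Within a population the CpG test called none of the family. In Ly-6D+ CLPs limma called 0 of 7, where 0.0271% of all genes were called, with an unadjusted p below 0.05 upward for 4 (3.13% of all genes) and 1 call, Gbp7, with a variance trend and robust estimation. The arrays did not overlap, CpG above PBS, for 4 members (10.7% of all genes). All 7 changes were above 0 (51% of all genes), and the median log2 change was 0.77, against 0.0032 for all genes. In Ly-6D- CLPs limma also called 0 of 7, where 0.546% of all genes were called and 0.302% were called higher, with an unadjusted p below 0.05 upward for 4 (6.35% of all genes). There were 3 calls, Gbp3, Gbp5 and Gbp7, with a variance trend and robust estimation. The shares of all genes given for both populations come from the fit without that setting and are no background for its calls. In Ly-6D- CLPs the arrays did not overlap for 4 members (8.5% of all genes) and 6 changes were above 0 (49.8%). The median there was 0.61, against -0.00057 for all genes. For the difference between the populations' responses limma called 0 of 7 members and 0% of all genes, with 1 member, Gbp9, and 6.37% of all genes at an unadjusted p below 0.05, and 0 members with a variance trend and robust estimation.

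**Figure D2:**
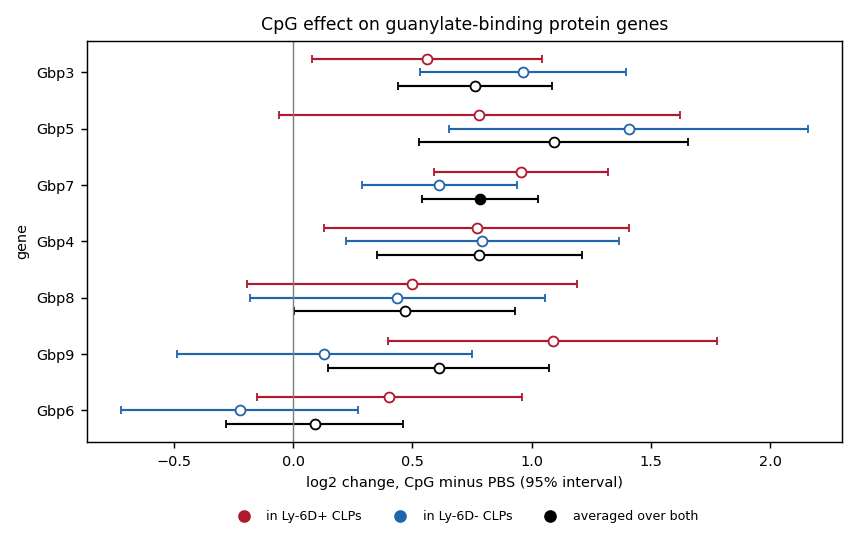
Log2 change of each GBP gene after CpG (horizontal axis, CpG minus PBS) for Ly-6D+ CLPs, for Ly-6D- CLPs and for their average; points are limma estimates, bars are 95% intervals and filled points passed at an adjusted p below 0.05. The averaged change of Gbp7, 0.78, is the only filled point, and Gbp5 has the highest averaged change, 1.09.

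Monocyte and macrophage marker genes moved in the same direction. All 7 of that list's measured members were above 0 after CpG in Ly-6D- CLPs (median 0.93), with 2 called: the monocyte chemokine receptor Ccr2 (1.57, adjusted p = 0.0101) and the surface marker Ly6c2 (1.09, adjusted p = 0.0300). In Ly-6D+ CLPs 6 of 7 were above 0 (median 0.30) and 0 were called by limma, with 2 at an unadjusted p below 0.05. The mean log2 level of the list was 6.54 to 7.11 in Ly-6D+ CpG arrays and 6.30 to 6.51 in Ly-6D+ PBS arrays, and 7.27 to 7.91 in Ly-6D- CpG arrays against 6.70 to 6.79 in Ly-6D- PBS arrays. The part of these cells in the GBP changes was not tested. The CLP marker genes moved the other way in Ly-6D- CLPs: all 7 measured were below 0 after CpG (median -0.38), each at an unadjusted p below 0.05, and 2 were called lower, Il7r (-0.81, adjusted p = 0.0300) and Rag2 (-0.75, adjusted p = 0.0221). Among all 22180 genes in Ly-6D- CLPs, 1255 were lower at an unadjusted p below 0.05 and 54 were called lower. In Ly-6D+ CLPs 5 of 7 CLP genes were below 0 (median -0.03) and limma called 0. There 1 was lower at an unadjusted p below 0.05, as were 749 of all genes. The mean log2 level of that list was 10.4 to 10.5 in Ly-6D+ CpG arrays and 10.5 in both Ly-6D+ PBS arrays, and 9.33 to 9.62 in Ly-6D- CpG arrays against 9.91 to 9.95 in Ly-6D- PBS arrays. Its part in the GBP changes was not tested either. Of 6 T-cell genes limma called 0 in either population, with 2 upward in Ly-6D+ CLPs and 1 in each direction in Ly-6D- CLPs at an unadjusted p below 0.05, and of 4 erythroid genes it called 0, with 0 at an unadjusted p below 0.05.

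The next question was whether the family differed between the CLP populations. Gbp4, Gbp8 and Gbp9, the adjacent chromosome 5 genes, were higher in Ly-6D+ than in Ly-6D- CLPs after CpG, each close to 2.9-fold, and Gbp4 and Gbp8 were higher after PBS too. After CpG 3 of 7 members were called, all higher, where 2.14% of all genes were called and 1.2% were called higher. After PBS 2 of 7 were called, both higher, where 1.98% of all genes were called and 1.18% were called higher. None of Gbp3, Gbp5 and Gbp7 was called in either comparison.

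Gbp4 stood 1.55 higher in Ly-6D+ CLPs after CpG (2.93-fold, SE 0.26, adjusted p = 0.0106) and 1.57 higher after PBS (2.98-fold, SE 0.29, adjusted p = 0.0207). All 5 Ly-6D+ arrays, at 4.48 to 5.89, were above all 6 Ly-6D- arrays, at 2.93 to 4.37. The difference after CpG passed whichever array was left out, but not without all arrays numbered 3 (1.36, adjusted p = 0.111). The difference after PBS did not pass without Ly-6D+ PBS replicate 2 (1.13, adjusted p = 0.159) or Ly-6D- PBS replicate 3 (1.37, adjusted p = 0.0622), nor with every probe set by itself (adjusted p = 0.0620), with only the groups compared in the fit (adjusted p = 0.153) or without all arrays numbered 3 (adjusted p = 0.119).

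Gbp8 stood 1.55 higher after CpG (2.92-fold, SE 0.28, adjusted p = 0.0164) and 1.49 higher after PBS (2.81-fold, SE 0.31, adjusted p = 0.0401). Its Ly-6D+ arrays, at 7.42 to 8.38, lay wholly above its Ly-6D- arrays, at 5.31 to 6.61. The call after CpG was lost without Ly-6D+ CpG replicate 2 (adjusted p = 0.0648) or 3 (0.0597), without Ly-6D- CpG replicate 1 (0.0689) or 2 (0.0737), or with every probe set by itself (0.0515). The call after PBS was kept on leaving out 1 array in 4 of 11 cases. Losses came without replicate 3 of Ly-6D+ CpG (adjusted p = 0.0600), replicate 1 (0.165) or replicate 2 (0.194) of Ly-6D+ PBS, any replicate of Ly-6D- CpG (0.0633, 0.0664 and 0.0595 for 1, 2 and 3), and replicate 2 of Ly-6D- PBS (0.0734). It was also lost with every probe set by itself (0.106), with only the groups compared (0.199) and without all arrays numbered 3 (0.107). On leaving out 1 array its difference after PBS stayed between 1.14 and 1.74.

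Gbp9 stood 1.55 higher after CpG (2.94-fold, SE 0.28, adjusted p = 0.0160) and 0.60 higher after PBS (SE 0.31, adjusted p = 0.509), which did not pass. After CpG the Ly-6D+ arrays, at 6.23 to 7.44, were apart from the Ly-6D- arrays, at 5.26 to 5.46. After PBS they met, since Ly-6D- replicate 2 was as high as the lower Ly-6D+ array at 5.66. The call after CpG was lost without Ly-6D+ CpG replicate 1 (adjusted p = 0.0682), without Ly-6D- CpG replicate 1 (0.0510) or 2 (0.0691), with every probe set by itself (0.0505) and with only the groups compared (0.0662).

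The chromosome 3 members had differences of -0.40 (Gbp3, adjusted p = 0.444), -0.73 (Gbp5, adjusted p = 0.407) and -0.08 (Gbp7, adjusted p = 0.891) in Ly-6D+ minus Ly-6D- CLPs after CpG. After PBS they were 0.00 (Gbp3, 95% interval -0.48 to 0.49), -0.11 (Gbp5, 95% interval -0.95 to 0.73) and -0.42 (Gbp7, adjusted p = 0.323). For Gbp7 both Ly-6D+ PBS arrays were below all 3 Ly-6D- PBS arrays. Gbp6 had a difference of 0.53 after CpG (adjusted p = 0.351) and of -0.10 after PBS (adjusted p = 0.942). Arrays did not overlap, with Ly-6D+ above, for 4 members after CpG (7.89% of all genes) and 2 after PBS (12.9%), and with Ly-6D+ below for 1 after PBS (14%). The population and CpG comparisons share arrays, so they are not separate evidence.

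**Figure D3:**
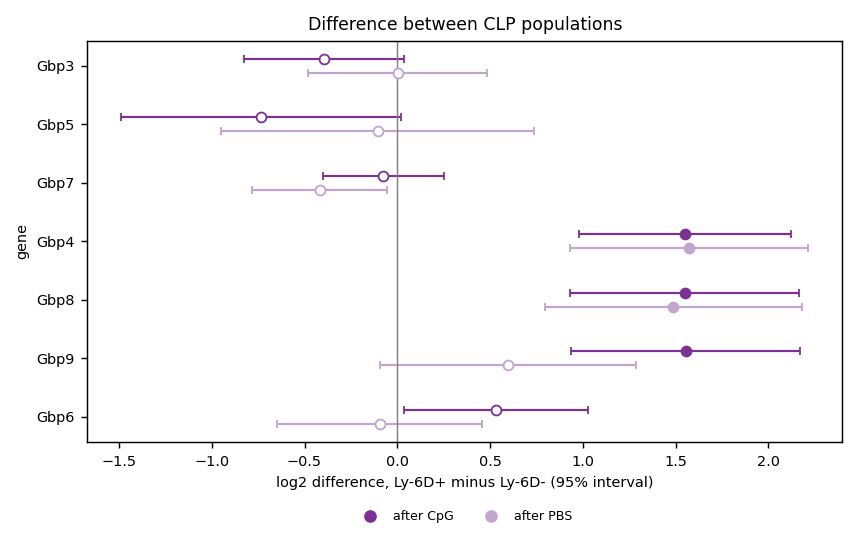
Log2 difference of each GBP gene between the CLP populations (horizontal axis, Ly-6D+ minus Ly-6D-) after CpG and after PBS; points are limma estimates, bars are 95% intervals and filled points passed at an adjusted p below 0.05. Gbp4 and Gbp8 are filled in both comparisons and Gbp9 after CpG only, while Gbp3, Gbp5 and Gbp7 lie near or below 0.

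Most plasmacytoid dendritic cell marker genes differed between the populations in the same direction as Gbp4 and Gbp8. Of 6 measured, 5 were higher in Ly-6D+ CLPs after CpG and 4 after PBS. Irf7 was lower in both comparisons, and Klk1b27 was lower after PBS. After CpG 4 were called higher in Ly-6D+ CLPs, among them the lectin Siglech (2.95, adjusted p = 4.93e-07) and Bst2 (0.58, adjusted p = 0.00850). After PBS 2 were called higher, Siglech (2.77, adjusted p = 2.27e-06) and Bst2 (0.97, adjusted p = 7.55e-04). The list's mean log2 level was 7.88 to 7.99 in Ly-6D+ CpG arrays against 6.76 to 7.06 in Ly-6D- CpG arrays, and 7.85 to 7.90 in Ly-6D+ PBS arrays against 7.03 to 7.43 in Ly-6D- PBS arrays. The NK receptor gene Klrd1 was higher in Ly-6D+ CLPs too, after CpG (1.53, adjusted p = 0.0180) and after PBS (1.72, adjusted p = 0.0205), the only one of 6 NK genes called. Monocyte and macrophage genes lay the other way, with 6 of 7 below 0 in each comparison. The exception after PBS was Ly6c2, 0.55 higher in Ly-6D+ CLPs at an unadjusted p below 0.05 from limma. After CpG it was Fcgr1, at 4.82 in Ly-6D+ and 4.81 in Ly-6D- CLPs. After CpG 2 were called lower in Ly-6D+ CLPs, Ccr2 (-1.91, adjusted p = 3.96e-04) and the growth factor receptor gene Csf1r (-1.69, adjusted p = 0.00154), and after PBS 1, Ccr2 (-1.25, adjusted p = 0.0117). The part of such cells in the GBP differences was not tested.

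The order of the 4 groups followed the same division in every measured member but Gbp6, whose order was Ly-6D+ CpG, Ly-6D- PBS, Ly-6D+ PBS and Ly-6D- CpG, with only the last pair of neighbours not overlapping. Gbp3 averaged 7.15 ± 0.17 in Ly-6D+ CpG arrays and 7.55 ± 0.34 in Ly-6D- CpG arrays (SD, n = 3 each), whose ranges overlapped. Below them came 6.59 ± 0.34 in Ly-6D+ PBS arrays (SD, n = 2) and 6.59 ± 0.23 in Ly-6D- PBS arrays (SD, n = 3), which also overlapped. Gbp7 averaged 8.44 ± 0.27 in Ly-6D+ CpG arrays and 8.52 ± 0.10 in Ly-6D- CpG arrays (SD, n = 3 each), which overlapped, then 7.49 ± 0.15 in Ly-6D+ PBS arrays (SD, n = 2) and 7.91 ± 0.18 in Ly-6D- PBS arrays (SD, n = 3), which did not. Gbp5 averaged 5.80 ± 0.77 in Ly-6D+ CpG arrays and 6.53 ± 0.44 in Ly-6D- CpG arrays (SD, n = 3 each), then 5.02 ± 0.16 in Ly-6D+ PBS arrays (SD, n = 2) and 5.13 ± 0.24 in Ly-6D- PBS arrays (SD, n = 3), and each group overlapped the next in order. All 3 chromosome 3 members thus had their CpG groups on top.

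Gbp8 instead had both Ly-6D+ groups on top. Its Ly-6D+ CpG arrays were highest, followed by 7.51 ± 0.12 in Ly-6D+ PBS arrays (SD, n = 2), then 6.46 ± 0.13 in Ly-6D- CpG arrays and 6.02 ± 0.63 in Ly-6D- PBS arrays (SD, n = 3 each), and its Ly-6D- groups overlapped. Gbp4 averaged 5.69 ± 0.33 in Ly-6D+ CpG arrays (SD, n = 3), 4.92 ± 0.62 in Ly-6D+ PBS arrays (SD, n = 2), and 4.14 ± 0.22 and 3.35 ± 0.37 in Ly-6D- CpG and Ly-6D- PBS arrays (SD, n = 3 each), with only its Ly-6D+ groups overlapping. Gbp9 kept that order, with 6.89 ± 0.62 in Ly-6D+ CpG arrays (SD, n = 3), 5.81 ± 0.20 in Ly-6D+ PBS arrays (SD, n = 2), and overlapping Ly-6D- groups at 5.34 ± 0.11 after CpG and 5.21 ± 0.40 after PBS (SD, n = 3 each).

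Across the 11 arrays Gbp3, Gbp5 and Gbp7 varied together, and so did Gbp4, Gbp8 and Gbp9. The Pearson correlation was 0.89 between Gbp3 and Gbp5, 0.78 between Gbp3 and Gbp7 and 0.78 between Gbp5 and Gbp7. It was 0.95 between Gbp4 and Gbp8, 0.85 between Gbp4 and Gbp9 and 0.84 between Gbp8 and Gbp9. Between Gbp5 and Gbp8 it was 0.0018, and between Gbp7 and Gbp9 0.31. Gbp6 fell in neither set, at 0.24 with Gbp4, 0.24 with Gbp8 and 0.50 with Gbp9. Once the group means were subtracted the division was less clear. Pairs within the sets then lay between 0.24 (Gbp3 and Gbp7) and 0.65 (Gbp4 and Gbp8). Pairs across the sets lay between -0.06 (Gbp4 and Gbp5) and 0.72 (Gbp5 and Gbp9). These are descriptions over arrays that fall into 4 groups and share their normalisation, and the division by chromosome was seen in the data first. Close copies in a cluster can share probe sequence, and whether these probe sets tell them apart was not tested.

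Gbp10, a chromosome 5 neighbour outside the 8 listed genes, was named after its values were seen. It was 1.21 higher in Ly-6D+ than in Ly-6D- CLPs both after CpG (adjusted p = 0.114) and after PBS (adjusted p = 0.171), and 0.66 higher after CpG averaged over both populations (adjusted p = 0.336), and none of these passed. Gbp2b and the pseudogene Gbp11 were dim, at the 19.8th and 15.5th percentile of genes.

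The pathway around the family was described from lists of interferon ligands, receptors, signalling factors and partner GTPases, in the CpG comparison averaged over both populations. Of 6 ligands and inducing cytokines, 0 were called higher and 1 lower: Il18, a cytokine that drives interferon-gamma release, at -0.70 (SE 0.09, adjusted p = 0.0159), with a list median of -0.07. Ifng, the gene of interferon-gamma, was dim, at the 23.1st percentile of genes, with a change of 0.26 (adjusted p = 0.473). That average joined 0.64 in Ly-6D+ CLPs (adjusted p = 0.503) and -0.11 in Ly-6D- CLPs (adjusted p = 0.861). The difference between these changes did not pass (adjusted p = 0.672). Of 4 interferon receptor genes 0 were called by limma, with 0 higher and 1 lower at an unadjusted p below 0.05, and the receptor chains Ifngr1 and Ifngr2 had changes of -0.18 (adjusted p = 0.432) and 0.07 (adjusted p = 0.828).

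Of 11 measured Janus kinases, STAT and IRF factors and related regulators, 1 was called higher and 0 lower, with a median of 0.01. The called gene was Nlrc5, which switches on MHC class I genes (0.50, SE 0.09, adjusted p = 0.0411). Irf1, a factor that activates Gbp promoters, had a change of 0.36 (adjusted p = 0.125). It was 0.56 in Ly-6D+ CLPs (adjusted p = 0.295) and 0.16 in Ly-6D- CLPs (adjusted p = 0.660). Of 6 feedback inhibitors, Socs3, which blocks Janus kinase signalling, was called higher (0.61, SE 0.11, adjusted p = 0.0471) and 0 were lower, with a median of 0.06.

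Of 8 measured immunity-related GTPases (IRGs), which load onto the same vacuoles as GBPs, 4 were called higher and 0 lower, and all 8 were above 0 with a median of 0.78, close to the 0.76 of the GBPs. Gm4951 had a change of 2.84 (SE 0.20, adjusted p = 1.74e-04) and Iigp1, which disrupts vacuoles, one of 2.24 (SE 0.26, adjusted p = 0.00853), while Igtp, a regulatory IRG, had 0.99 (adjusted p = 0.0167) and Gm12250 0.69 (adjusted p = 0.0167). Of 10 other dynamin-superfamily GTPases 0 were called by limma, with 0 higher and 3 lower at an unadjusted p below 0.05, and their median was -0.07. Among all 22180 genes, 1229 were lower at an unadjusted p below 0.05 in this averaged comparison.

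Next came the lists of what GBPs work with. Of 5 prenylation enzymes, which attach the lipid that anchors some GBPs to membranes, 0 were called by limma, with 1 higher at an unadjusted p below 0.05 and a median of 0.11. Of 10 genes of the ATG8 conjugation machinery, needed to target GBPs to vacuoles, 0 were called by limma, with 1 higher at an unadjusted p below 0.05 and a median of 0.03. Of 9 inflammasome components, 1 was called higher, the adaptor Pycard (0.39, SE 0.07, adjusted p = 0.0433), and 0 lower, with 4 higher at an unadjusted p below 0.05 and a median of 0.34.

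**Figure D4:**
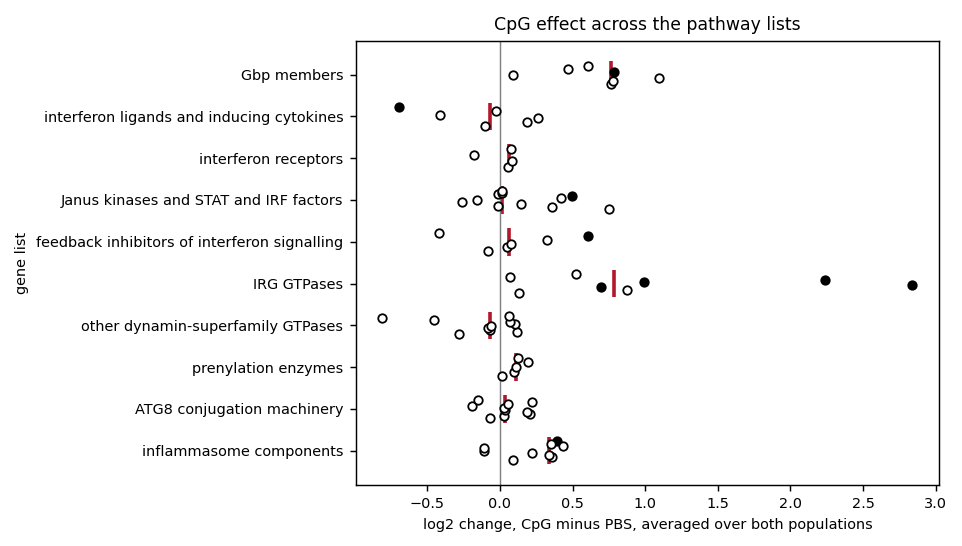
Log2 change after CpG averaged over both CLP populations (horizontal axis, CpG minus PBS) for the genes of each list (vertical axis); each point is 1 gene, filled where it passed at an adjusted p below 0.05, and each red bar is a list median. The IRG list reaches highest, to 2.84, and its median of 0.78 is close to the GBP median of 0.76, while the other lists centre between -0.07 and 0.34.

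In the population comparisons, the signalling list held 1 gene called after CpG, Stat2, a part of the type I interferon complex (0.77 higher in Ly-6D+ CLPs, adjusted p = 0.00920), and 1 after PBS, Irf8, a myeloid and dendritic cell factor (0.72 higher in Ly-6D+ CLPs, adjusted p = 0.00404). The IRG list had 0 genes called in either comparison by limma, with 0 after CpG and 3 lower after PBS at an unadjusted p below 0.05, unlike Gbp4 and Gbp8, which were called in both. That contrast between the families was not itself tested.

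In a search for genes that followed the members, predicted or numbered gene symbols, such as Gm4951 and Gm12250, were left out. Among the rest, H2-Q5 most followed the mean standardised level of the 7 members over the 11 arrays (Pearson correlation 0.955). Zfp1 (0.947) and H2-Q4 (0.932) followed. H2-Q5 and H2-Q4 are nonclassical MHC class I genes, and H2-Q5 rose by 0.85 after CpG averaged over both populations (adjusted p = 0.0309). Next came Slamf7 (0.930), Ehd3 (0.929), Icosl (0.924), Mt2 (0.921), Psmb9 (0.920), an immunoproteasome subunit, Klrk1 (0.919), the NKG2D receptor, and Ncbp1 (0.914). The members themselves correlated between 0.30, for Gbp6, and 0.73, for Gbp9, with the mean of the other members. These values describe 11 arrays in 4 groups and carry no test. The genes outside the family were picked for the size of their correlation from all genes not left out.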

How the data were processed

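Gene expression was measured on 11 Affymetrix Mouse Gene 2.0 ST arrays. Per the labels, a NuGEN Ovation kit amplified 5 ng of total RNA, and the labelling reaction took 5 µg of the cDNA. The deposited log2 values are RMA values made by the authors, with Partek, per the submitters' processing notes, which name no version. RMA normalises arrays to a common distribution, so changes are relative to all genes.

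Of 41345 probe sets, 25335 had a gene in the platform annotation and 23521 exactly 1 symbol; the brightest such probe set on average stood for each of 22180 genes, 1082 of which had several. Each measured GBP gene had 1 probe set. Samples were grouped by population and treatment from their titles. One linear model with 4 group means (limma 3.58.1, R 4.3.3, lmFit and eBayes, 7 residual and 3.48 prior degrees of freedom) gave CpG minus PBS in each population, their average and difference, and Ly-6D+ minus Ly-6D- after each treatment, with Benjamini-Hochberg adjustment. The script was tested on simulated data. Named genes were the 7 members with the same values for each, list genes that passed in a comparison, Ifng, Ifngr1, Ifngr2 and Irf1, and the 10 genes most like the members by Pearson correlation. Predicted or numbered gene symbols were left out before those 10 were picked. The members and lists were chosen with earlier results of these data known. The marker lists covered CLPs, monocytes and macrophages, NK cells, T cells, plasmacytoid dendritic cells, mature B cells, neutrophils and erythroid cells. Alternatives were other probe set choices, a filter on dim genes, other variance estimates, array weights, further quantile normalisation, replicate number as a block and leaving out arrays. Promoter windows came from RefSeq (GRCm38.p6). Tables and figures were made in Python 3.11.15 (pandas 2.3.3, matplotlib 3.10.9).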

Additional observations from a re-analysis of the deposited data

Results flagged for a closer look

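The 1 probe set that carries both Gbp2 and Gbp2b lay outside the comparisons, since its signal cannot be assigned to either gene, and it was higher after CpG than in the PBS samples. Its log2 level was 6.94, 7.53 and 6.56 in Ly-6D+ CLPs after CpG, against 5.60 and 5.48 after PBS. In Ly-6D- CLPs it was 7.73, 8.02 and 6.89 after CpG, against 5.99, 6.31 and 6.14 after PBS. The CpG arrays were above the PBS arrays in both populations. Tested with limma over all 41345 probe sets, the averaged log2 change was 1.44 (2.71-fold, SE 0.23, unadjusted p = 1.38e-04, adjusted p = 0.0768), which did not pass. It was 1.47 in Ly-6D+ CLPs (adjusted p = 0.427) and 1.40 in Ly-6D- CLPs (adjusted p = 0.157). No group has 4 or more arrays, so outlying arrays were not sought.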

How the results depend on the processing

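Across the alternatives other than leaving out 1 array, 363 of 400 member values kept their direction and side of the threshold, 12 lost it, 20 gained it and 5 reversed; on leaving out 1 array, 422 of 462 kept both. The count of members called for CpG in Ly-6D+ CLPs was 0, and 1 with a variance trend and robust estimation or without all arrays numbered 3. In Ly-6D- CLPs it was 0, and 1 without the dimmest 33.3% of genes, with array weights, with further quantile normalisation or without the arrays numbered 3, 2 (Gbp3 and Gbp5) with the replicate block and 3 with the variance trend. Averaged, it was 1, and 0 with every probe set by itself, 2 without the dimmest genes, with array weights or with quantile normalisation, and 3 (Gbp3, Gbp5 and Gbp7) with the variance trend, with the replicate block or without the arrays numbered 3. After CpG it was 3, but 1 (Gbp4) with every probe set by itself, 2 (Gbp4 and Gbp8) with only the groups compared and 2 (Gbp8 and Gbp9) without the arrays numbered 3; the filter on dim genes, array weights and quantile normalisation changed no population count. After PBS it was 2, and 0 with every probe set by itself, with only the groups compared or without the arrays numbered 3, and 1 (Gbp4) with the replicate block, where Gbp8 had an adjusted p of 0.0913. Leaving out 1 array gave 0 to 0 for CpG in Ly-6D+ CLPs, 0 to 1 in Ly-6D- CLPs, 0 to 2 averaged, 1 to 3 between populations after CpG and 0 to 2 after PBS; without 1 Ly-6D+ PBS array the other is assumed to vary like the other groups. Differences of the CpG effects stayed at 0 calls throughout.

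Near 0, signs turned. Gbp3 after PBS was -0.024 with array weights, -0.13 with the replicate block and -0.13 without the arrays numbered 3; the Gbp4 difference of CpG effects was 0.049 with the block, and Gbp7 between populations after CpG was 0.000175 without the arrays numbered 3. Leaving out 1 array gave -0.067 to 0.18 for averaged Gbp6, -0.46 to 0.42 and -0.19 to 0.41 for the differences of CpG effects of Gbp4 and Gbp8, -0.22 to 0.052 for Gbp7 after CpG, -0.24 to 0.24 and -0.24 to 0.0079 for Gbp3 and Gbp5 after PBS, and -0.0099 to 0.36 for Gbp9 with CpG in Ly-6D- CLPs. The causes were not tested. Same-numbered arrays correlated in their deviations from the group means at -0.03 to 0.18 (median 0.04, 2 of 15 pairs over 0.1), and others at -0.13 to 0.09 (median -0.04, 0 of 30 over 0.1). Both pairs over 0.1 joined arrays numbered 3: Ly-6D+ CpG with Ly-6D- CpG (0.18) and with Ly-6D- PBS (0.13). The remaining pair numbered 3, Ly-6D- CpG with Ly-6D- PBS, was at 0.09. Ly-6D+ PBS had no array numbered 3. For Gbp3, Gbp5 and Gbp9, replicate 3 was the lowest array of every group that had one. What these arrays share was not tested. The labels do not say that a number marks shared animals, so the numbers were not taken to pair arrays, and the block changed the calls given above and no others. Gbp6 had no value under the filter on dim genes, and only the groups compared could not be applied to the average or the difference. The number of arrays, 2 or 3 a group, limits all of these.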

Other observations

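Mature B-cell genes had 0 of 5 called for CpG in either population and between populations after CpG by limma, with at most 2 at an unadjusted p below 0.05 in 1 direction, and 2 called higher in Ly-6D+ CLPs after PBS, the inhibitory B-cell co-receptor gene Cd22 and Cd79b, a component of the B-cell receptor. Of the 7 CLP genes, Rag2 was called lower after CpG averaged over both populations (-0.45, adjusted p = 0.0469). Beside Ly6d, Il7r was higher in Ly-6D+ than in Ly-6D- CLPs after CpG (1.46, adjusted p = 1.76e-04) and after PBS (0.68, adjusted p = 0.0365), Rag2 was higher after CpG (0.86, adjusted p = 0.00157), and Kit was lower after CpG (-0.67, adjusted p = 0.0160) and after PBS (-1.08, adjusted p = 0.00210). Of 6 neutrophil genes, Mpo, the granule peroxidase, was lower in Ly-6D+ than in Ly-6D- CLPs after CpG (-1.78), and 0 were called by limma in the other comparisons of a pair of groups, with at most 1 at an unadjusted p below 0.05. Il12a, a chain of interleukin-12, fell by 0.73 after CpG in Ly-6D- CLPs (adjusted p = 0.0444), and Il18 was lower in Ly-6D+ than in Ly-6D- CLPs after CpG (-1.08, adjusted p = 0.00111). In Ly-6D- CLPs alone, CpG raised Nlrc5 by 0.65 (adjusted p = 0.0444), Igtp by 1.03 (adjusted p = 0.0416), Pycard by 0.54 (adjusted p = 0.0371) and Gm4951 by 2.53 (adjusted p = 0.00660); in Ly-6D+ CLPs, Gm4951 rose by 3.14 (adjusted p = 0.00390).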
